A study of Mus musculus with 6 samples.

Results

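Neutrophils carry their killing proteins in granules and sense bacteria and cytokines through surface receptors, and 10 genes for such proteins were compared between penile squamous cell carcinoma and normal penile epithelium of the mouse. The genes were taken by name. They are the surface genes Csf3r, Cd177 and Trem1, the secreted protein gene Retnlg, the primary granule genes Mpo and Elane, and the specific granule genes Ltf, Lcn2, Camp and Ngp. Each of the 10 was found among the 24063 gene symbols of the data and was represented by its transcript with the highest mean count. The tumors came from 3 male SA mice of the genotype PB-Cre+ Smad4L/L ApcL/L, and the normal samples from 3 male wild type (WT) C57BL/6 mice, every animal being 5 months old. PB-Cre, the PB-Cre4 line in the study's methods, is driven by an androgen-responsive promoter that is active in epithelium of the penis and prostate, so that Smad4 and Apc were deleted in such epithelial cells and not by design in blood cells. The WT mice are labelled with no Cre or floxed allele, the tumors arose without carcinogen, and the strain background of the SA mice is not given in the sources used here. Each sample is RNA of a whole piece of tissue, 1 per mouse, in which more neutrophils and more RNA per neutrophil cannot be told apart.

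Neutrophils are made in the bone marrow, and their granules are filled in order. Genes of the primary granules, such as Mpo and Elane, are transcribed in promyelocytes, and genes of the specific granules, such as Ltf, Camp and Ngp, in the myelocytes that follow. Both groups are largely silent in the mature cell that leaves the marrow, whereas receptors such as Csf3r and Trem1 are transcribed there. Lactoferrin (Ltf) and lipocalin 2 (Lcn2) are also made by epithelial cells, which makes them the least specific to neutrophils among the 10.

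The 5 upstream windows that follow belong to genes from both ends of the result described below, 2 that rose in SA tumors (Csf3r, Retnlg) and 3 with few or no counts in any sample (Ngp, Mpo, Elane). All 10 genes had 1 window each in the RefSeq table. A window holds the 250 bases before the transcript start that this table uses, in the RefSeq annotation of GRCm38.p6, which has the coordinates of mm10, and all 5 are on the plus strand. For Csf3r that start lies inside the span of the gene given below, downstream of its first base, and for the other 4 it is the first base of the gene. They lie at chr4:126024409-126024658 for Csf3r, chr16:48872358-48872607 for Retnlg, chr9:110419558-110419807 for Ngp, chr11:87793534-87793783 for Mpo and chr10:79886062-79886311 for Elane. Capitals mark the letters GAGGAAG, a core of the binding motif of the myeloid factor PU.1, and TTGCNNAA, a core of the C/EBP motif, both searched on the 2 strands.
Csf3r: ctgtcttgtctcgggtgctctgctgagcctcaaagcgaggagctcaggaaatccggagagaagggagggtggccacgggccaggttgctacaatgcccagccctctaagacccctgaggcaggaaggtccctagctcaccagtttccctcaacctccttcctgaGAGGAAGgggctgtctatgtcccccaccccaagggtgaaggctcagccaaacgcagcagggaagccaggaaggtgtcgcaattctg
Retnlg: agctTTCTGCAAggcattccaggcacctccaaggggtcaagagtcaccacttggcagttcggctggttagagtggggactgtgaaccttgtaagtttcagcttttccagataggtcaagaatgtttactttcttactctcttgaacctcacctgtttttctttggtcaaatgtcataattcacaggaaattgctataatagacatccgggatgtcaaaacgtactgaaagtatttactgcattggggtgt
Ngp: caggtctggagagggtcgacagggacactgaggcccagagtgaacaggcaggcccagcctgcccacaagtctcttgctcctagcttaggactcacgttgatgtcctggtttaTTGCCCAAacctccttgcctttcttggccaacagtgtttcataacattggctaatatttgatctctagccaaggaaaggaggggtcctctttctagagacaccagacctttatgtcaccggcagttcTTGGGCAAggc
Mpo: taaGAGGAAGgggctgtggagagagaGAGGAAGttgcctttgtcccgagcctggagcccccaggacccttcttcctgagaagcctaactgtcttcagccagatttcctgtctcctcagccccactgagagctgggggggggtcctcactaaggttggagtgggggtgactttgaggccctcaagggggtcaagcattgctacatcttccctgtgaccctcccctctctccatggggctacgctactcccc
Elane: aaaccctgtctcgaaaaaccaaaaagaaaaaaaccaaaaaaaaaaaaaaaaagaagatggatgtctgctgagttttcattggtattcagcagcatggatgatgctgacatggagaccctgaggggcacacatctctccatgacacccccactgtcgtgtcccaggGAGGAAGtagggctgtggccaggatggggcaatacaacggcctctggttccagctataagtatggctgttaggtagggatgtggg

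The PU.1 letters were found in the windows of 4 of the 10 genes (Csf3r, Elane, Lcn2 and Mpo) and in 10.6% of 32851 promoter windows of the same length. The C/EBP letters were found in 4 of the 10 (Lcn2, Ltf, Ngp and Retnlg) and in 9.56% of all windows. A TATAAA box was found in Cd177 alone, against 12.4% of all windows. In Csf3r, which rose, and in Elane, which had almost no counts, the PU.1 letters began 86 and 85 bases before that transcript start. In no window of the 10 genes did the 2 motifs overlap each other, and a match describes the sequence and not a bound site.

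Of the 10 genes, 4 were higher in SA tumors past an adjusted p-value of 0.01 and a log2 fold change of 2, by edgeR's quasi-likelihood F-test. They were Cd177, Trem1, Retnlg and Csf3r, and 0 were lower, also by DESeq2 and at an unadjusted p under 0.05. By the same thresholds 9.41% of the 16336 genes tested were higher in SA tumors and 3.59% were lower. At an adjusted p under 0.01 and any fold, the same 4 of the 10 were higher, against 20.1% of all genes. The other 6 genes divide into Ltf and Lcn2, which were abundant in both groups with overlapping values, and Ngp, Camp, Mpo and Elane, which had too few counts to pass the filter of 0.380 counts per 1000000 reads (CPM) in at least 3 samples. The count of 4 was also found under DESeq2 and in each of the 6 fits that left out 1 sample. Cd177, Trem1 and Retnlg exceeded the filter's level in the 3 SA tumors and in no WT sample, so that among genes passing the filter these 3 had to differ, and the shares are given as description.

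**Figure D1:**
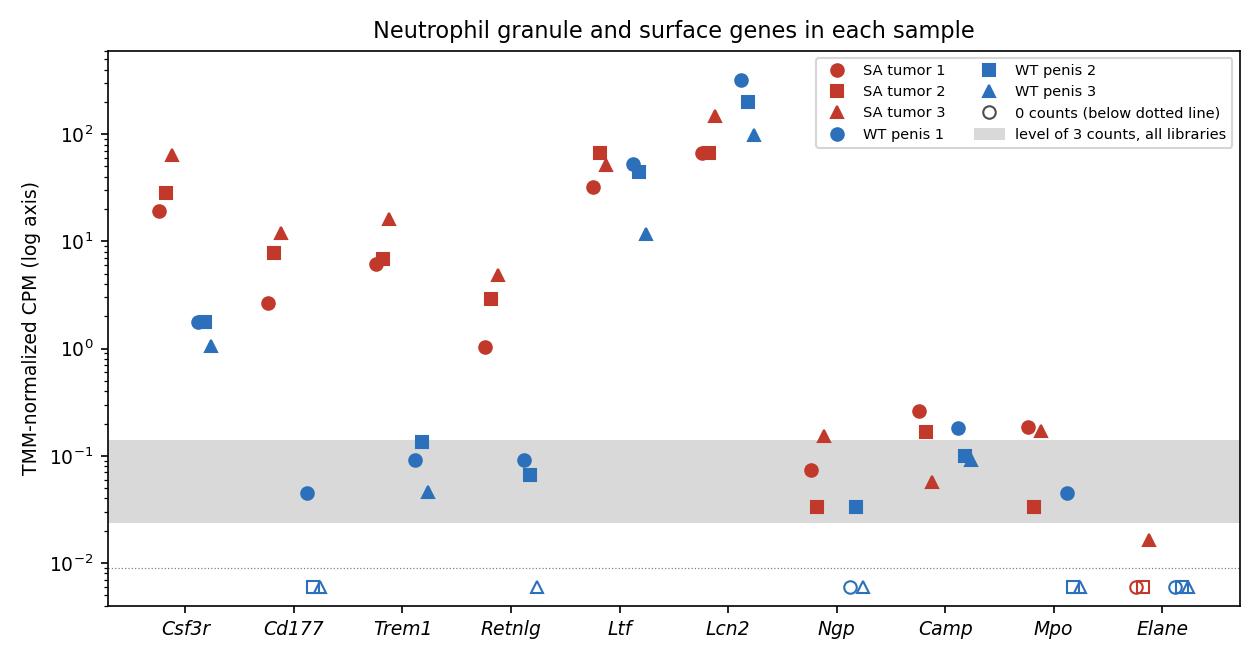
Normalized CPM (log axis) of the 10 genes in each of the 3 SA tumors (red) and 3 WT penises (blue), 1 point per sample, with the grey band at the level that 3 counts have across the libraries and open symbols for 0 counts. Red points lie above all blue points for Csf3r, Cd177, Trem1 and Retnlg, the colours mix for Ltf and Lcn2, and the last 4 genes stay at or near the grey band.

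Csf3r (NM_007782, chromosome 4, 126023441 to 126044975) encodes the receptor of granulocyte colony-stimulating factor, which drives the production of neutrophils and keeps the mature cells alive. It measured 19.1, 28.4 and 63.4 CPM in SA tumors 1 to 3, and 1.76, 1.77 and 1.05 CPM in WT penises 1 to 3. Every tumor was thus above every WT sample, tumor 3 was the highest of all, and the WT values were counts of 23 to 53 and lay above the level of 3 counts. SA tumors exceeded WT samples 24.1-fold, a log2 fold change of 4.59 with a standard error of 0.539 (adjusted p = 0.000486), and of 3.95 without SA tumor 3. Among genes tested, 32.7% had all SA values above all WT values.

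Trem1 (NM_021406, chromosome 17, 48232713 to 48246927) encodes an activating receptor of neutrophils and monocytes that amplifies responses to bacteria. Its level was 6.17, 6.79 and 16.3 CPM in the SA tumors and 0.0904, 0.134 and 0.0456 CPM in the WT samples, the latter from 1 to 4 counts. The groups did not overlap, tumors 1 and 2 were close to each other, and tumor 3 stood above them. On the log2 scale it rose by 6.67 with a standard error of 0.602 (adjusted p = 4.77e-05), or by 6.04 without SA tumor 3.

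Cd177 (NM_026862, chromosome 7, 24743983 to 24760334) encodes a glycoprotein anchored to the neutrophil surface, where it takes part in crossing the vessel wall. It gave 71, 233 and 1485 counts in tumors 1 to 3, or 2.64, 7.71 and 12.1 CPM, against 1, 0 and 0 counts in the WT samples. The gene was therefore at the limit of detection in normal tissue and present in each tumor, with tumor 1 lowest. The fitted log2 fold change, 8.84 with a standard error of 1.01 (adjusted p = 0.000212), hangs on a single WT count, and became 11.46 without WT penis 1, when only zeros were left in that group. The ratio of the pooled counts, scaled to library size, was 735, with a 95% interval of 132 to 29037 (Clopper-Pearson) that covers counting error only. Of 2762 stretches of 76 bases in its transcripts, the length of a read, 97 also occur in the transcripts of BC049730 or Gm4763, so a part of its reads could be shared. For Csf3r 104 of 3702 such stretches occur in transcripts of other genes, and for the other 8 genes 0 do. The annotation also places long non-coding RNA genes over Csf3r, Trem1 and Mpo, and the strand setting of the counting is not given in the sources used here.

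Retnlg (NM_181596, chromosome 16, 48872608 to 48874498) encodes a resistin-like secreted protein that in mice is made by neutrophils, mature cells included. It gave 28, 87 and 601 counts in tumors 1 to 3, equal to 1.04, 2.88 and 4.88 CPM, and 2, 2 and 0 counts in the WT samples. The groups were again apart, with the lowest tumor 4.69-fold below the highest. The rise on the log2 scale was 5.73 with a standard error of 0.841 (adjusted p = 0.000641), and 5.08 without SA tumor 3. The pooled counts gave a ratio of 73.5, with a 95% interval of 28.6 to 271 that again covers counting error only. When edgeR's glmTreat asked whether the change exceeded the threshold and not merely 0, Retnlg just missed with an adjusted p of 0.0102, and the other 3 genes passed.

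Ltf (NM_008522, chromosome 9, 111019292 to 111042766) encodes lactoferrin, an iron-binding antibacterial protein of the specific granules and of epithelial secretions. It measured 32.1, 66.4 and 51.4 CPM in the SA tumors and 52.2, 44.7 and 11.8 CPM in the WT samples. WT penis 3 was the lowest of the 6 samples, and the 2 other WT values lay within the range of the tumors. The difference on the log2 scale, 0.46 with a standard error of 0.547 (adjusted p = 0.513), did not pass, and ranged from 0.03 to 0.81 as each sample was left out.

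Lcn2 (NM_008491, chromosome 2, 32384637 to 32387739) encodes a protein that binds bacterial iron carriers and is made by neutrophil precursors and by inflamed epithelium. It was at 66.7, 66.4 and 148.8 CPM in the SA tumors and at 320.7, 200.1 and 97.7 CPM in the WT samples. The groups overlapped, since tumor 3 exceeded WT penis 3, and the order of the WT samples was the same as for Ltf. The difference on the log2 scale was -1.13 with a standard error of 0.514 (adjusted p = 0.111) and did not pass the test. None of the 10 genes had every SA value below every WT value, against 30.7% of all genes tested. Without SA tumor 3 it was -1.63 (adjusted p = 0.0340), short of both thresholds.

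The primary granule genes were all but absent. Mpo (NM_010824, chromosome 11, 87793784 to 87804412), for the myeloperoxidase that makes hypochlorous acid, gave 5, 1 and 21 counts in tumors 1 to 3 and 1, 0 and 0 in WT penises 1 to 3. Elane (NM_015779, chromosome 10, 79886312 to 79888216), for neutrophil elastase, had 2 counts in SA tumor 3 and 0 in the other 5 libraries. In that deepest library a count of 3 equals 0.0244 CPM, so Elane lay below this floor there too and no fold is given. The pooled counts of Mpo gave a ratio of 11.1 (95% interval 1.83 to 454), and with no filter its log2 fold change was 3.08 (adjusted p = 0.0567 by edgeR and 0.155 by DESeq2). SA tumor 3 gave 21 of the 27 SA counts of Mpo, and the interval leaves out variation between animals.

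The other specific granule genes were as scarce. Ngp (NM_008694, chromosome 9, 110419808 to 110423012), for neutrophilic granule protein, gave 2, 1 and 19 counts in tumors 1 to 3 and 0, 1 and 0 in WT penises 1 to 3. Camp (NM_009921, chromosome 9, 109847377 to 109849456), for the cathelicidin antimicrobial peptide, had 7, 5 and 7 counts in tumors and 4, 3 and 2 in WT penises. Both genes overlapped between the groups. Pooled ratios were 9.04 for Ngp (95% interval 1.46 to 373) and 0.867 for Camp (0.374 to 2.18), with intervals that leave out variation between animals. SA tumor 3, the deepest library, gave 19 of the 22 SA counts of Ngp. Pooling gives that library the most weight, and Camp was lowest there, at 0.0569 CPM. The ratio of the mean CPM of Camp, in which each animal weighs the same, was 1.30. With no filter edgeR gave log2 fold changes of 2.72 for Ngp (adjusted p = 0.0854) and 0.13 for Camp (adjusted p = 0.910), and DESeq2 gave 2.60 with no adjusted p and 0.30 (adjusted p = 0.849). The level of 3 counts, taken as the floor, was 0.0244 to 0.137 CPM per library, so most of these values lay at or near it and a small difference between the groups in these 4 genes was not detectable.

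On a scale that corrects for transcript length (TPM, in which the transcripts of a sample sum to 1000000), Lcn2 was the most abundant of the 10 in SA tumors at 197 ± 105 (SD, n = 3), from 133.1 to 318.2, above all others in each tumor. Ltf followed at 32.2 ± 10.4 TPM and Csf3r at 16.9 ± 11.1, and their ranges overlapped, though Ltf was the higher within each tumor. Retnlg stood at 8.60 ± 5.81 TPM, Trem1 at 5.77 ± 3.51 and Cd177 at 4.90 ± 3.18, with overlapping ranges. Within each tumor Retnlg exceeded Cd177, whereas the place of Trem1 beside them changed between tumors. The order of levels was different in WT penises. There Lcn2 was at 325 ± 158 TPM and Ltf at 17.8 ± 10.05, whereas Csf3r was at 0.532 ± 0.129, and the next was Camp at 0.280 ± 0.0926 TPM from no more than 4 counts.

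Ratios within a sample, in which library size cancels, put the unequal changes side by side. Ltf exceeded Csf3r by 1.07 ± 0.783 (SD, n = 3) on the log2 TPM scale in SA tumors and by 4.86 ± 0.748 in WT penises, a difference of -3.79. Lcn2 exceeded Csf3r by 3.61 ± 0.331 in tumors and by 9.15 ± 0.496 in WT samples, a difference of -5.54. Trem1 lay below Csf3r in both, at -1.52 ± 0.225 and -3.81 ± 0.408, and rose by 2.29 more than Csf3r, a value that rests on 1 to 4 WT counts of Trem1. Camp relative to Csf3r was at -5.21 ± 2.01 in tumors and -0.95 ± 0.443 in WT samples. That ratio rests on 5 to 7 counts of Camp in each tumor and 2 to 4 in each WT sample. With no filter Camp itself had a log2 fold change of 0.13 with a standard error of 0.80, against a log2 fold change of 4.59 for Csf3r. With so few counts, the part of Camp in the difference between the groups could not be told. In each of these 4 ratios no SA value reached a WT value, and the exact two-sided permutation test gave p = 0.1 for each (also 0.1 after Benjamini-Hochberg adjustment over the 4), which is the smallest p that 3 against 3 allows.

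**Figure D2:**
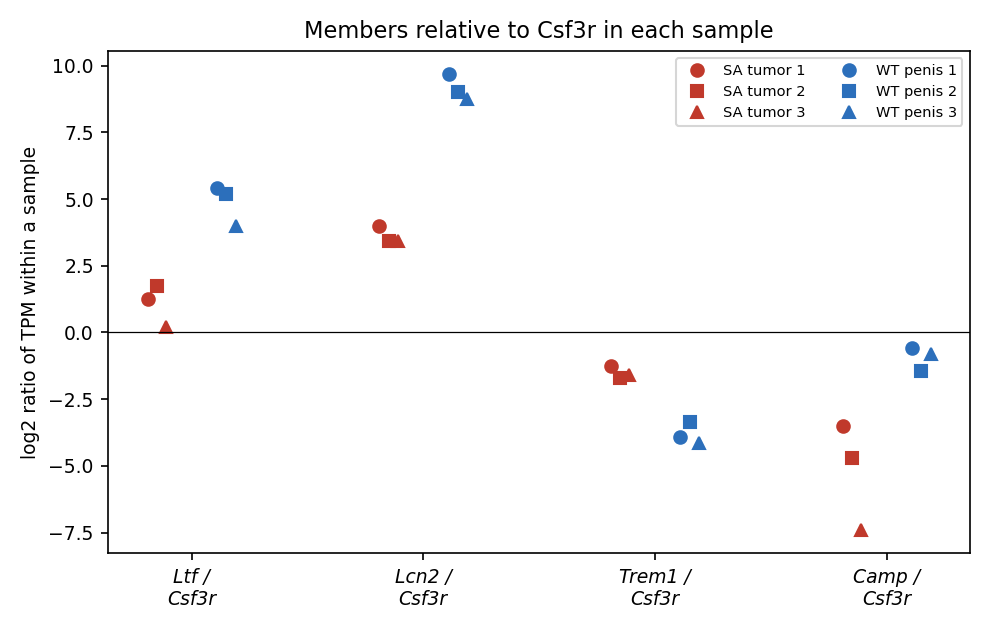
Log2 ratio of TPM of Ltf, Lcn2, Trem1 and Camp to Csf3r within each sample, 1 point per sample (red, SA tumors; blue, WT penises). Red points sit below the blue ones for Ltf, Lcn2 and Camp and above them for Trem1, with no overlap in any of the 4 ratios.

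The spread between tumors was wide for these genes. The highest SA tumor exceeded the lowest by 4.69-fold for Retnlg, 4.57-fold for Cd177, 3.31-fold for Csf3r, 2.64-fold for Trem1, 2.24-fold for Lcn2 and 2.07-fold for Ltf. Over all genes tested the median of this ratio was 1.29, and 98.0% of genes had a smaller spread than Retnlg, 97.9% than Cd177, 96.1% than Csf3r and 93.0% than Trem1. Sampling widens the spread of genes with few counts, and Csf3r had at least 515 counts in every tumor. Tumor 3 was the highest and tumor 1 the lowest for each of the 4 genes that rose, an order that 20.8% of all genes tested shared. Ltf was highest in tumor 2, and Lcn2 was highest in tumor 3 with tumors 1 and 2 alike. Among WT samples, WT penis 1 exceeded WT penis 3 by 4.42-fold for Ltf and 3.28-fold for Lcn2, a wider spread than between the tumors, though the difference was not tested.

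The same order was seen in markers of other cells, whose part in the spread was not tested. All 9 pan-leukocyte markers were highest in tumor 3 and lowest in tumor 1, with a summed level of 122.6, 225.6 and 355.8 CPM in the tumors against 85.5 to 131.8 CPM in WT samples. The most abundant of them, Lcp1, measured 35.1, 55.2 and 101.2 CPM in the tumors. The globin gene Hbb-bs, a marker of blood in the tissue, ranged from 5.13 CPM in tumor 1 to 71.7 in tumor 3, a 14.0-fold spread. Collagen Col1a1 went from 329.9 CPM in tumor 1 to 1123 in tumor 3. The keratin Krt10 was lowest in tumor 3, but 4 of the 11 epithelial markers were highest there. Ptprc, the leukocyte antigen CD45, was chosen after its values were seen. Relative to it, Csf3r was at 1.16, 1.05 and 1.14 on the log2 TPM scale in the 3 tumors, a narrower range than that of Csf3r itself, and at -1.92 ± 0.353 (SD, n = 3) in WT samples. Lcn2 relative to Ptprc went the other way, from 7.23 ± 0.651 in WT samples to 4.73 ± 0.373 in tumors.

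**Figure D3:**
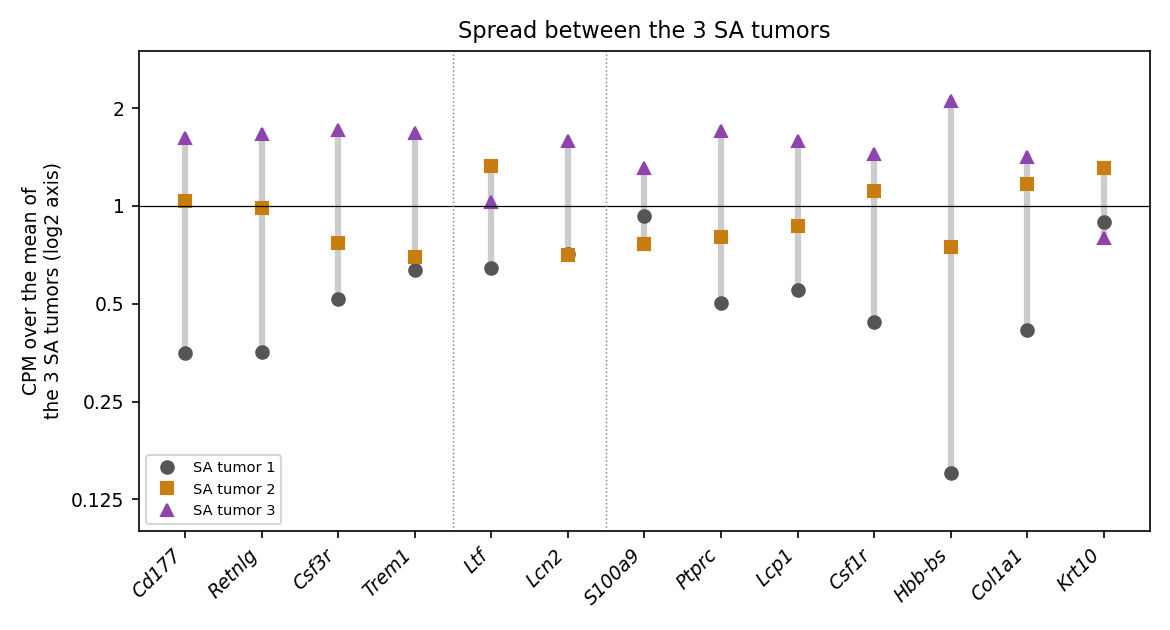
Normalized CPM of each gene in SA tumors 1, 2 and 3, divided by the mean of the 3 tumors (log2 axis), for the 4 genes that rose, Ltf and Lcn2, and then S100a9 with markers of other cells. Tumor 3 (triangles) is highest for all 4 genes that rose, for Ptprc and for Hbb-bs, and tumor 1 (circles) is lowest.

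Other genes of the neutrophil were taken from 4 lists, by granule type and place in the cell. Of their 55 genes in the data 48 were tested, 21 were higher in SA tumors past both thresholds and 0 were lower. At any fold Prss57, Serpinb1a and Asprv1 were lower with an adjusted p under 0.01, and at an unadjusted p under 0.05 edgeR gave 38 higher and 4 lower. Asprv1 had the highest mean level of the 4 lists, at 1279 to 1725 CPM in WT samples and 543 to 798 in tumors. Which cells its RNA came from was not tested. The 21 are 43.75% of those tested, against 9.41% of all genes, and the median log2 fold change of the 48 was 1.58, against 0.03 over all genes. Some of the 21, such as Mmp8, Fpr1 and Clec4e, exceeded the filter's level in every SA tumor and in no WT sample. The shares are therefore given as description here too. DESeq2 also called 21 higher and 0 lower, and glmTreat left 8. Without WT penis 2 the count was 17.

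None of the 4 tested among 8 other primary granule and promyelocyte genes passed both thresholds. Ctsc, for the protease that activates the granule serine proteases, had a log2 fold change of 1.07, Cst7 of 1.53, Serpinb1a, for an elastase inhibitor, of -0.90, and Prss57 of -1.55. The remaining 4, Prtn3, Ctsg, Bpi and Ms4a3, were below the filter like Mpo and Elane. Prtn3, for proteinase 3, gave 3, 19 and 114 counts in tumors and 6, 6 and 1 in WT penises.

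Among 13 specific and gelatinase granule genes tested of 14, 5 rose. They were the matrix metalloproteinases Mmp9 (log2 fold change 6.33), Mmp8 (4.84) and Mmp25 (2.91), the haptoglobin gene Hp (6.23) and the chitinase-like Chil3 (3.25). Mmp9, whose protein also comes from macrophages and tumor cells, was at 101, 171.3 and 219.2 CPM in the tumors and 1.91 to 2.22 CPM in WT samples. Hp had the widest spread, from 4.83 CPM in tumor 1 to 56.9 in tumor 3, and its call was lost without any 1 of the WT samples, as was that of Chil3. Mmp8 had 3, 0 and 0 counts in the WT samples, so that without WT penis 1 its fitted log2 fold change went to 8.86.

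Like Csf3r and Trem1, 7 of 15 tested genes of the surface list were higher past both thresholds. Among them were the C-type lectin receptors Clec4e (6.32) and Clec4d (4.93), the formyl peptide receptors Fpr1 (5.58) and Fpr2 (4.23), Trem3 (4.53) and the chemokine receptor Cxcr2 (2.91), given as log2 fold changes. Cxcr2, which guides neutrophils to CXC chemokines, was at 8.14, 9.60 and 18.2 CPM in the tumors and 1.81, 2.20 and 0.729 in WT samples. The 8 surface genes that did not pass included Fcgr3 (0.59), Itgb2 (1.58), Selplg (0.95), Ceacam1 (0.26) and Il1r2, which went the other way (-0.50). Ly6g was not among the gene symbols of the data and so was not analysed here.

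Of 16 cytosol and secreted genes, all tested, 9 rose. The calprotectin genes were the most abundant of them, S100a8 at 582 to 1034 CPM in tumors against 32.8 to 63.5 in WT samples and S100a9 at 803 to 1368 against 22.1 to 53.0. S100a8 and S100a9 are also made by stressed keratinocytes, and they were highest in tumor 3 and lowest in tumor 2, unlike the 4 genes above. The stefins Stfa2 (6.18), Stfa2l1 (3.64) and Stfa3 (2.76), Hdc for the histamine-forming enzyme (4.60), Wfdc21 (2.74) and the oxidase subunit Ncf4 (2.29) rose as well. Stfa2l1, Wfdc21 and Ncf4 each lost the call in 1 of the 6 fits that left out a sample, without WT penis 2, WT penis 1 and SA tumor 3 respectively. Padi4, for an enzyme that citrullinates histones in neutrophils, rose by 7.79 on the log2 scale but was highest in tumor 1, at 86.4, 57.0 and 36.7 CPM in tumors 1 to 3. Of the 21 genes called in the 4 lists, 18 were highest in tumor 3, 2 in tumor 2, and Padi4 in tumor 1.

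**Figure D4:**
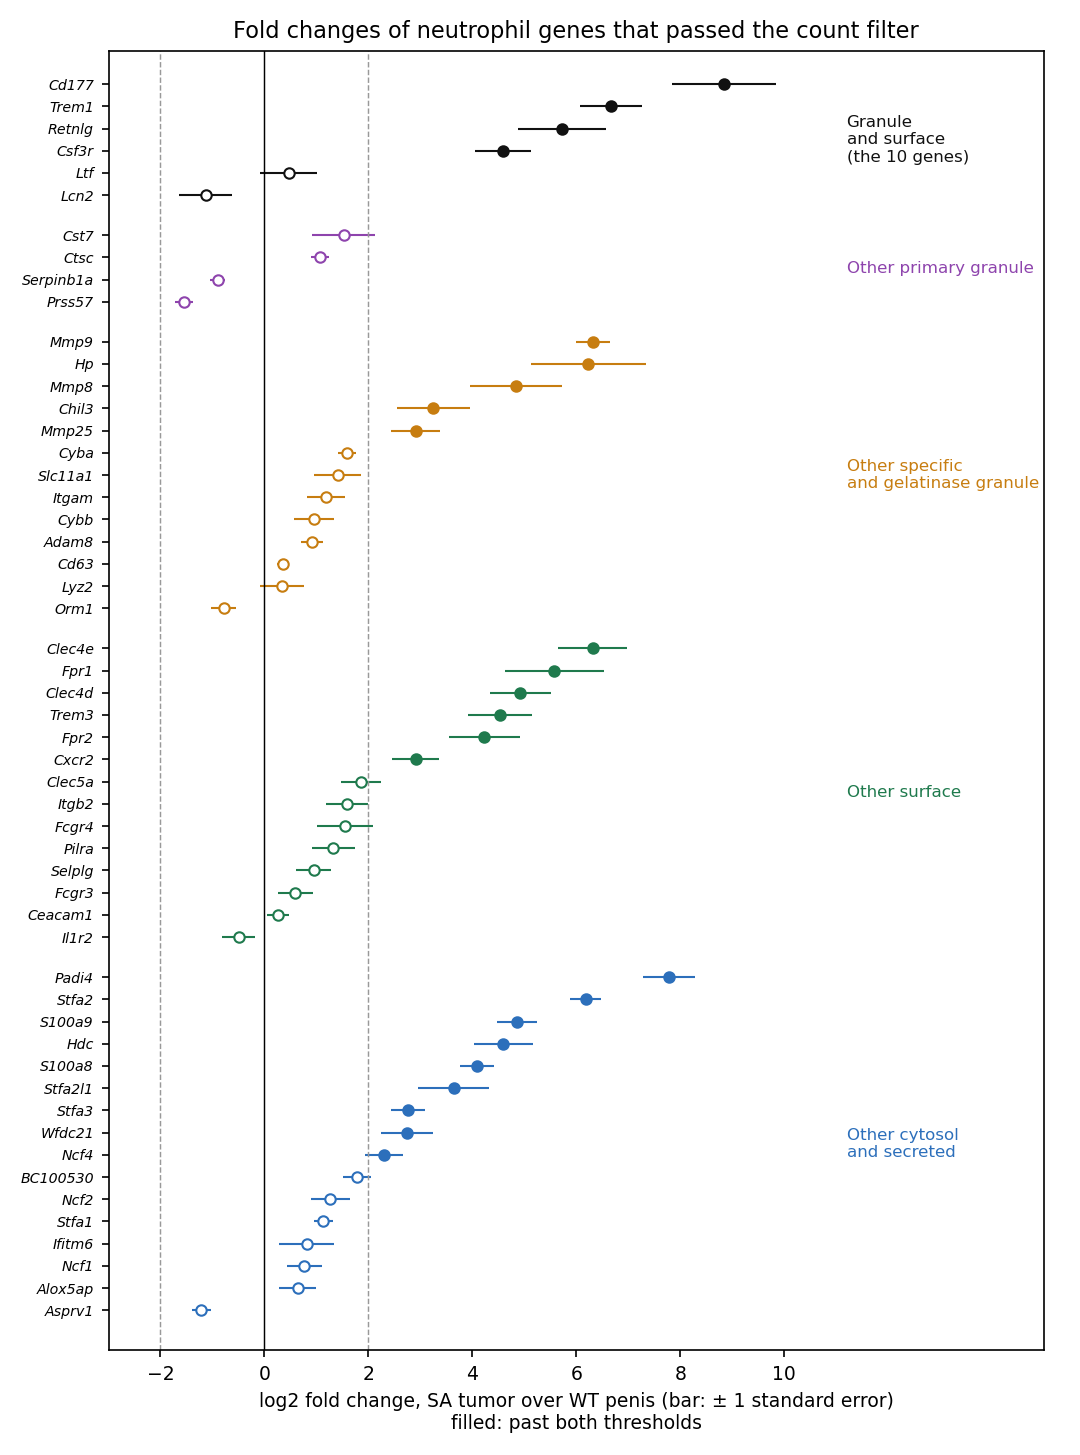
Log2 fold change of SA tumors over WT penises, with 1 standard error on each side, for the 6 of the 10 genes and 47 of the 48 other neutrophil genes that passed the filter, 1 surface gene past both thresholds not being shown. Filled points passed both thresholds (4 genes, and 20 of the 21 others), dashed lines mark a log2 fold change of 2 in either direction, and no filled point lies to the left of 0.

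Among transcription factors of granulocyte production, 1 of 7 tested was higher and 0 were lower past both thresholds. The former was Gfi1, a repressor needed for neutrophil differentiation, at 12.2, 8.18 and 6.93 CPM in tumors and 0.136, 0.1 and 0.273 in WT samples (log2 fold change 5.76, adjusted p = 1.33e-05). Like Padi4 and unlike Csf3r, it was highest in tumor 1. Cebpe, which switches on the specific granule genes, had 1, 1 and 9 counts in tumors and 0 in WT samples. Spi1, which encodes PU.1, had a log2 fold change of 1.05 and Cebpa of -1.41, neither past both thresholds. Csf3, the ligand of Csf3r, measured 2.04, 2.28 and 3.91 CPM in the tumors and at most 0.200 in WT samples (higher by 4.68 on the log2 scale, with a standard error of 0.623 and an adjusted p of 0.000364). Like Cd177, Trem1 and Retnlg, both Gfi1 and Csf3 exceeded the filter's level in every SA tumor and in no WT sample. Among genes passing the filter they had to differ, and their p-values are given as description.

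Markers of other cells that could bear on these genes were counted in the same way, and their part in the results was not tested. Of 12 monocyte and macrophage markers, which share Trem1 and several surface receptors with neutrophils, 0 were higher and 0 lower past both thresholds (1 was higher and 2 were lower at an unadjusted p under 0.05 by edgeR), with a median log2 fold change of -0.01. Their summed level was 152.0 to 377.0 CPM in tumors and 255.9 to 355.7 in WT samples, led by Csf1r and C1qc. The pan-leukocyte markers had a median of 1.06, and 0 of 9 passed both thresholds by edgeR, with 7 higher at an unadjusted p under 0.05. Mast cell and basophil markers had a median of 1.36, 0 of 7 tested passing and 4 higher at an unadjusted p under 0.05 by edgeR, and sums of 33.0 to 98.1 CPM in tumors and 30.1 to 46.6 in WT samples. Of 8 eosinophil markers 1 was tested, Ear2, which was lower past both thresholds (log2 fold change -4.49, adjusted p = 0.000393 by edgeR). Siglecf, below the filter, went the other way, at 0.149 to 0.698 CPM in tumors and 0 to 0.0456 in WT samples. Eosinophil markers summed to 0.409 to 1.33 CPM in tumors and 0.866 to 1.99 in WT samples. Epx, their defining peroxidase, had 3 counts in tumor 3 and 0 in the other 5 libraries.

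Of the red cell and platelet markers 1 of 8 tested was higher, and their sum was 36.1 to 194.8 CPM in tumors against 160.7 to 254.1 in WT samples, every WT sum lying above those of tumors 1 and 2. Among these markers Hba-a1 and another alpha-globin gene had identical counts in every library, and each enters the 8 and the sum. Hbb-bs itself had a log2 fold change of -1.29 (adjusted p = 0.223). The mouse penis contains a bone, and bone markers rose in 3 of 5 tested, with sums of 28.5 to 36.5 CPM in tumors and 6.83 to 16.1 in WT samples, beside the few counts of Mpo, Elane and Ngp in the same libraries. The tissue makeup differed as well. Of 11 epithelial markers 3 were higher and 1 was lower past both thresholds, and their sum, most of it Krt10 and Krt1, was 22775 to 28138 CPM in tumors and 61137 to 68960 in WT samples. Of 10 stromal, vessel and muscle markers 0 were higher and 3, all of muscle, were lower by edgeR (2 higher and 5 lower at an unadjusted p under 0.05), and their sum was 882.0 to 2524 CPM in tumors and 3969 to 4568 in WT samples. Both sums thus cover genes that went in either direction.

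The libraries held 23828283 to 110509147 counts over gene rows, and SA tumor 3 had 4.42 times the median depth of the rest. Thinned to that median, it gave the same 4 and 21 calls. Smad4 was lower in all SA tumors (36.1 to 46.1 CPM) than in all WT samples (61.2 to 72.5), with a log2 fold change of -0.77 (adjusted p = 0.00114), and Apc was higher (193.6 to 253.1 against 62.5 to 91.1 CPM, log2 fold change 1.43, adjusted p = 0.000185). These counts cover whole transcripts and do not single out deleted exons, so that they check the labels only in part.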

How the data were processed

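Penile tumors (3 SA mice) and penile epithelium (3 WT mice) were profiled by stranded paired-end RNA sequencing. Per the labels each sample is a separate replicate, and each tissue came from its own mouse. TopHat (alignment to mm10) and HTSeq (counting) were the authors' tools, and the raw counts deposited are per RefSeq transcript. The authors deposited FPKM and TPM beside them. TPM was used for levels and ratios within a sample, and FPKM was not used. The submitters' processing notes also name FastQC and DESeq2.

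The transcript with the highest mean count stood for each of 24063 symbols. Counts were normalized by TMM in edgeR 4.0.16 (R 4.3.3), and filterByExpr left 16336 genes (3 or more samples at 0.380 CPM, from a minimum of 10 counts, with 15 in total). The 2 groups were compared over all 6 samples by the robust quasi-likelihood F-test, and p-values were adjusted over all genes tested (Benjamini-Hochberg). The thresholds were those of the study, 0.01 for the adjusted p and 2 for the log2 fold change. A standard error is the log2 fold change over the square root of F. Intervals and floors (3 counts) cover counting error only. The intervals of pooled ratios rest on counts summed over the animals of a group. They leave out variation between animals and give the deepest library the most weight. Reads had no molecular identifiers, so duplicate copies of a molecule are not accounted for.

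The 10 genes, the gene lists and the tests were chosen with earlier results of these data known. All 10 genes are named. Other names were drawn from any gene of the 4 other neutrophil lists and of the transcription factors, the 2 most abundant of each list of other cells, and Epx, Csf3, Smad4 and Apc. Ptprc was named after its values were seen. Of the genes that could be named, 1 is not reported here by name, though it enters the counts. Adgre1 and Siglecf were found under the older symbols Emr1 and Siglec5. Replicate numbers were not treated as pairs, because samples of the same number had residual correlations of -0.13, -0.10 and 0.02. On simulated counts edgeR recovered 192 of 200 genes that had been shifted by 3 on the log2 scale and called 0 of the other genes among 16195. The shifts had random directions and were centred on each gene's mean over all samples. This recovery therefore does not extend to genes with almost no WT counts, such as Cd177, Retnlg and Trem1. Alternatives were DESeq2 1.42.0, other normalizations, no filter, glmTreat, a replicate block, summed transcript rows, a thinned library and each sample left out. Upstream sequences came from RefSeq, and shared reads were sought in GENCODE transcripts as stretches of 76 bases.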

Additional observations from a re-analysis of the deposited data

How the results depend on the processing

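The number of the 10 genes called higher was 4 under every alternative except glmTreat, which tests against the fold-change threshold and gave 3. The median log2 fold change of the genes tested, 5.16 over 6, was 2.90 with no filter and 2.88 with DESeq2, because all 10 then entered, and 4.51 to 5.50 as each sample was left out, lowest without SA tumor 3. For the 48 other neutrophil genes the count of 21 fell to 8 with glmTreat, ranged from 17 to 22 as each sample was left out, and was 20 with no filter and 23 with library totals only. The replicate block gave 4 and 21 calls and a median of 4.99, and it changed no call of a named gene. A single direction turned in 2 genes far from the thresholds, Cebpb (-0.044 without SA tumor 2, with a range up to 0.14 as each sample was left out) and Cebpd (-0.081 without WT penis 1, with a range up to 0.17). The cause of these changes was not tested. With 3 samples a group and WT counts of 0 to 4, the sizes of the changes in Cd177, Retnlg and Trem1 are limited by depth, and the floor of 3 counts lay between 0.0244 and 0.137 CPM.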
